A study of Mus musculus with 2 samples.

Results

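Transcripts of 5 genes that fix, move or release ammonia in the liver were compared between hepatocytes sorted as positive and as negative for EzrinT567D, a phosphomimetic form of ezrin, the protein that ties the plasma membrane to cortical actin. The genes are Glul, Oat, Rhbg, Gls2 and Glud1. They were chosen by name for their roles in ammonia scavenging, with ratios from these same 2 arrays already known, so their ratios are a description and not a test. A probe set was taken when the annotation tied it to a single gene of that name. This gave 6 probe sets for 4 of the 5 genes, out of 34945 probe sets for 18193 genes. Gls2, which encodes the liver-type glutaminase of periportal hepatocytes, was not analysed here, since no probe set carries its name in the annotation used. The periportal glutaminase arm of the cycle therefore has no value.

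Both groups came from wild-type male FVB/N mice of 6 to 8 weeks that had received, through the lateral tail vein, 10 µg of the plasmid PT3EF5α EzrinT567D with 0.8 µg of pCMV/SB in 2 ml of 0.9% saline. Both therefore saw the same rapid infusion, which drives plasmid into hepatocytes, and both went through collagenase digestion and cell sorting, 1 week later per the source names and the design text. The EzrinT567D negative group is the GFP-negative fraction and the EzrinT567D positive group the GFP-positive fraction, each on 1 Affymetrix Mouse Genome 430 2.0 array. The labels conflict on time and on diet. The description fields of both samples give 2 months in place of 1 week, and they assign fast food to the positive sample and chow to the other, whereas the growth protocol names chow throughout. Diet and sort therefore cannot be told apart from the labels. The number of mice, any pooling and whether the fractions share livers are points not given in the sources used here. Because each group has 1 array, the groups cannot be tested against each other, and no value below has a replicate error.

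The liver lobule handles ammonia in sequence along the blood flow. Periportal hepatocytes release ammonia from glutamine and other amino acids and make urea from it. A narrow rim of pericentral hepatocytes around the central vein then captures what is left as glutamine, through glutamine synthetase, in a zone maintained by WNT and beta-catenin signalling. Ornithine aminotransferase and the ammonium transporter Rhbg share that pericentral position, and glutamate dehydrogenase links ammonia to glutamate in mitochondria.

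Signals are linear intensities scaled by the submitters to one overall level, with a 2% trimmed mean of 500.0 in both arrays. A signal counted as above background when it exceeded the 95th percentile of 84 probe sets for chemosensory receptors (olfactory, taste, vomeronasal and trace amine), which came to 276.6 (negative array) and 334.04 (positive array). Hepatocyte markers were bright in both arrays, with 8 of 8 measured markers above the floor and summed signals of 291498 and 275014. Both probe sets for Ezr itself lay below the floor in both arrays (135.3 and 15.7 for 1450850_at, 7.6 and 13.6 for 1456725_x_at), so the sort labels have no check through the transgene. Signal at the 3′ end over that at the 5′ end went from 0.970 (negative) to 0.864 (positive) in Actb, and from 3.46 to 3.13 in Gapdh.

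Where 2 signals stand together below, the first is from the negative and the second from the positive array. Glul and Oat read at least 2-fold higher in EzrinT567D positive hepatocytes, Rhbg read higher by a smaller factor, and Glud1 read nearly the same in both. Of the 4 genes with a value, 2 were at or past 2-fold higher. Among all 9849 genes above the floor in at least 1 array, 1.14% were at or past 2-fold higher, 0.599% were at or past 2-fold lower, and 46.3% were higher by any amount. Nothing is read from the members' count against these shares, because the members were picked with these ratios known.

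**Figure D1:**
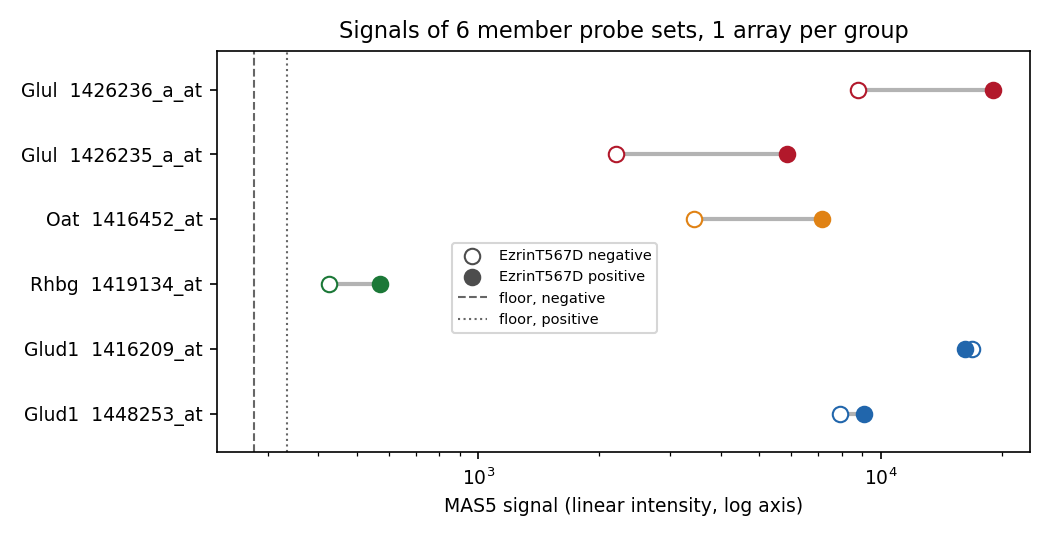
Signal of each member probe set in the EzrinT567D negative array (open circles) and the EzrinT567D positive array (filled circles), on a log axis of MAS5 signal, with the background floor of each array as vertical lines. The filled circle lies to the right for both Glul probe sets, Oat and Rhbg, while the Glud1 pairs lie close together and differ in direction.

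Glul encodes glutamine synthetase, which joins ammonia to glutamate and is the defining enzyme of pericentral hepatocytes. Its brighter probe set, 1426236_a_at, read 8783.1 in negative and 19020.7 in positive cells, a 2.17-fold difference and a log2 ratio of 1.11. The dimmer probe set, 1426235_a_at, read 2193.0 and 5837.1, a 2.66-fold difference and a log2 ratio of 1.41. The positive array was the higher one in both, so the direction does not rest on a single probe set. Both have the suffix _a_at, which marks probes that can match more than 1 transcript form of the same gene.

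Probe sets of one gene give the technical spread that is available here. In 3122 genes, 2 or more probe sets exceeded both floors. The difference in log2 ratio between the 2 brightest had an SD of 0.41, and its median size was 0.25. Divided by the square root of 2, the SD corresponds to 0.29 for a single log2 ratio. The 2 Glul probe sets differed by less than the SD of such differences (0.41) but by more than their median size (0.25). Among those genes, 24 had a brightest probe set at or past 2-fold higher, and in 10 of the 24, Glul included, the second probe set was also at or past 2-fold higher. This spread leaves out any difference between mice.

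Oat encodes ornithine aminotransferase, the mitochondrial enzyme that converts ornithine to a precursor of glutamate and proline. Its single probe set, 1416452_at, read 3442.4 and 7136.4, a 2.07-fold difference and a log2 ratio of 1.05. That is just past the 2-fold line and has no second probe set beside it. The log2 ratios of Glul and Oat differed by 0.06, well within the spread between probe sets.

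Rhbg encodes an ammonium transporter of the Rhesus family in the hepatocyte membrane. Its probe set, 1419134_at, read 425.0 and 569.7, a 1.34-fold difference and a log2 ratio of 0.42. These signals were 1.54 and 1.71 times the floors, the dimmest among the members. The ratio exceeded the technical SD of a single ratio (0.29) by less than that SD, and it lay below the 90th percentile of all genes that exceeded both floors (0.44). No second probe set stands beside it.

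Glud1 encodes glutamate dehydrogenase, which releases ammonia from glutamate or, in reverse, takes it up. The brighter probe set, 1416209_at, read 16868.3 and 16175.1, a log2 ratio of -0.06. The other, 1448253_at, read 7946.3 and 9081.4, a log2 ratio of 0.19. The 2 probe sets thus pointed in opposite directions by small amounts, and the sign of the brighter one turned with the scaling (0.06 after quantile normalization, 0.05 after loess). Glud1 has no settled direction in these arrays.

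Rank places the members among all genes. By log2 ratio, Glul stood at place 51 and Oat at place 66 from the highest among 8239 genes measured above both floors, Rhbg at place 910 and Glud1 at place 4746. Large ratios were scarcer among bright genes: of 805 genes with a mean signal above 5000, 5 were at or past 2-fold higher and 2 at or past 2-fold lower, with a median log2 ratio of -0.12. Of the 4310 genes with a mean signal up to 1000, 47 were at or past 2-fold higher and 22 lower, with a median of 0.08. Among the 214 genes with a mean signal at least that of Glul, itself included, Glul had the highest log2 ratio in the deposited scaling. Among the 761 genes at least as bright as Oat, 5 had a ratio as high as that of Oat, itself and Glul among them. Of the 13143 single-gene probe sets that exceeded both floors, 1.13% were at or past 2-fold higher. Of these, 22 had a higher ratio than the dimmer Glul probe set, 94 than the brighter one and 117 than Oat.

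**Figure D2:**
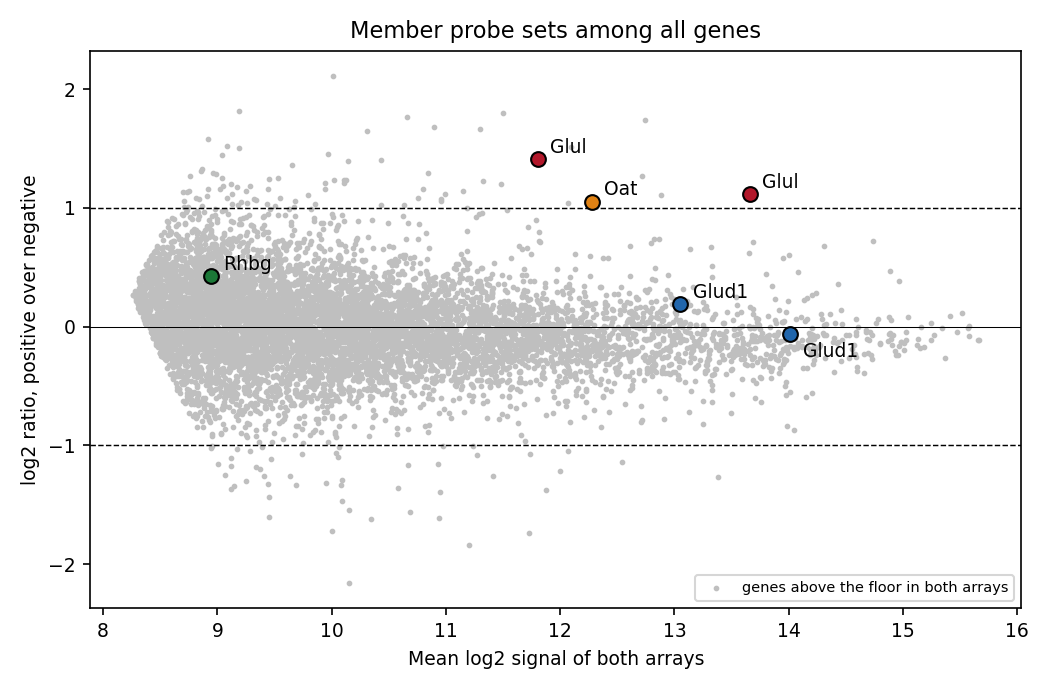
Difference between the arrays, as log2 of positive signal over negative signal, against the mean log2 signal of both, for the brightest probe set of every gene above the floor in both arrays (grey, 8239 genes) and for all 6 member probe sets (coloured), with dashed lines at 2-fold. Both Glul probe sets and Oat lie above the upper line, in a signal range where few grey points do, and Rhbg lies inside the cloud of dim genes.

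The genes most like each member were taken as the 3 nearest in log2 ratio among genes of similar signal (mean log2 signal within 1). With 2 arrays this likeness is one ratio and nothing more. For Glul they were Cyp1a2 (5137.7 and 11096.1, log2 ratio 1.11), Igfbp1 (4343.9 and 10461.9, 1.27) and Tsc22d1 (5609.2 and 9379.5, 0.74), and of 549 genes in that window 2 had a ratio as high as that of Glul. For Oat they were Trp53inp1 (2991.6 and 6145.4, 1.04), Cyp1a2 and Cyp2c50 (2111.2 and 4177.7, 0.98), with 8 of 1327 genes as high. Rhbg and Glud1 lay where ratios are dense. Their nearest genes were Slc25a38, Ehmt2 and Ip6k1 for Rhbg, and Rplp0, Gjb2 and Dnajb11 for Glud1, within 0.00025 (Rhbg) and 0.0012 (Glud1) of the member's log2 ratio.

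The sequence around the transcription start is shown for the members that RefSeq windows cover, because Glul and Oat read higher together while Glud1 did not. Windows run from 250 bases before to 50 bases after the start, in GRCm38.p6, and 3 of the 5 genes had one; Rhbg and Gls2 had none. Each is written 5′ to 3′ on the strand of the gene, at chr1:153899679-153899978 on the plus strand for Glul, chr7:132576349-132576648 on the minus strand for Oat and chr14:34310477-34310776 on the plus strand for Glud1. Capitals mark the CCAAT box, a common promoter element, on either strand (as CCAAT or ATTGG).
Glul: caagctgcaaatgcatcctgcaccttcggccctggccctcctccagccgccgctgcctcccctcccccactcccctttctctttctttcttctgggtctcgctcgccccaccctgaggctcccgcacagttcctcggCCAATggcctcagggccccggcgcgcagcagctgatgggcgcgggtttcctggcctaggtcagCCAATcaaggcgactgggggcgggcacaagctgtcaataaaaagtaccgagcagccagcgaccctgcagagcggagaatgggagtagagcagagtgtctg
Oat: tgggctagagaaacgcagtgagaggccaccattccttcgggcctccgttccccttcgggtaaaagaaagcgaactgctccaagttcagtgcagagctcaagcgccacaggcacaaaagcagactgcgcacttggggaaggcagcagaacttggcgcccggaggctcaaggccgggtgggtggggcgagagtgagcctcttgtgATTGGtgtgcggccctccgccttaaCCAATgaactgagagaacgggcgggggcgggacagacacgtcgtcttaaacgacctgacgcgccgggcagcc
Glud1: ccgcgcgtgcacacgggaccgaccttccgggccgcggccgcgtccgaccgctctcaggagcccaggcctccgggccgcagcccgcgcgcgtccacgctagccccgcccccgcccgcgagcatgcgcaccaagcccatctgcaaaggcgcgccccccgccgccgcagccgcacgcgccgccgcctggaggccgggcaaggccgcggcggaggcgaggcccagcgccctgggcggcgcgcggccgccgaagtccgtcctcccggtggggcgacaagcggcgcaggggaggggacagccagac

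The windows of Glul and Oat each held 2 CCAAT boxes, and that of Glud1 held 0. With the base before the start at -1, the leftmost bases of these matches lay at -113 and -50 in Glul and at -47 and -22 in Oat. Of 32851 windows, 37.4% held at least 1 match on either strand and 11.7% at least 2. The letters CTTTGA, a core read by the TCF and LEF factors of WNT signalling, were in none of the 3 windows on either strand, against 16.0% of all windows. The letters AGGTCA, a half-site of nuclear receptors, occurred once in Glul, at -57, and in neither of the others, against 16.3% of all windows. The GC-box letters GGGCGG occurred 1 time in Glul, 2 times in Oat and 3 times in Glud1, against 35.7% of windows with at least 1 match. TATAAA was in none of the 3, against 13.6% of windows. No match overlapped a match to another motif. GC content was 64.3% for Glul, 61.7% for Oat and 81.0% for Glud1, with a median of 52.7% over all windows. These matches describe letters only, and the motifs were picked after the ratios were known.

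The wider ammonia and glutamine pathway did not read higher with Glul and Oat. Across 6 lists together, 56 of 81 listed genes lay above the floor, 17 higher and 39 lower, with a median log2 ratio of -0.15 against 0 over all genes. At or past 2-fold, 2 were higher, Glul and Oat, and 4 were lower. Without the members, 14 of 52 were higher and 38 lower, at a median of -0.17. For all genes above the floor the shares were 46.3% higher, 1.14% at or past 2-fold higher and 0.599% at or past 2-fold lower. Genes with a mean signal above 5000 had a median of -0.12, and the lists mix bright and dim genes. The part of signal level in the list medians was not tested.

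Among enzymes that interconvert glutamate and glutamine, 2 of 9 were higher and 7 lower by their brightest probe sets. Got1, the cytosolic aspartate aminotransferase, was the one member of the list at or past 2-fold lower (2847.5 and 1417.7, 2.01-fold). Bcat2, a mitochondrial branched-chain aminotransferase, read 416.4 and 665.4, a log2 ratio of 0.68 from a signal near the floor. The alanine aminotransferases Gpt2 (-0.32) and Gpt (-0.24) and the tyrosine aminotransferase Tat (-0.27) had small negative ratios. Other probe sets reached 0.32 in Gpt2, 0.75 in Gpt, 0.69 in Got2, 0.08 in Crbn and 0.19 in Glud1, so none of these genes has a settled direction. The list median was -0.16 with the brightest probe sets and 0.07 with the mean over probe sets. The count of lower genes thus rests on the choice of probe set.

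On the ornithine and proline route to glutamate, Oat stood by itself. The other 4 genes above the floor were within 0.31 of 0 on the log2 scale: Prodh (0.15) and Prodh2 (-0.21), which begin proline and hydroxyproline breakdown, Aldh4a1 (0.17), which makes glutamate from the shared intermediate, and the reductase Pycrl (-0.31), which makes proline from it.

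Among transporters of ammonium, glutamine and glutamate, 6 of 14 were higher and 8 lower, none by 2-fold. Slc1a2, a glutamate transporter of pericentral hepatocytes, was nearest to Glul in direction and size, at 435.8 and 820.1, 1.88-fold and a log2 ratio of 0.91. That ratio starts from a negative signal near the floor and rests on 1 probe set above both floors. Slc1a4, a neutral amino acid transporter, read 853.7 and 1382.0 (0.69), and Slc25a13, the mitochondrial aspartate and glutamate carrier, 2748.1 and 1616.4 (-0.77). Slc38a4, an amino acid transporter abundant in liver, had a ratio of -0.39. Slc38a3, a glutamine transporter of hepatocytes, read 13171.2 and 13169.7 in its brightest probe set and had a log2 ratio of -0.29 in another. Rhcg and Rhag, the other Rhesus ammonium transporters, lay below the floor in both arrays.

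Most genes of the urea cycle list and of the ammonia-releasing deamination list read lower. In the urea cycle list 6 of 8 were lower and 2 higher, and the median was -0.30. The 2 higher genes were Ass1 (1080.2 and 1180.1, 0.13) and Nags (806.3 and 822.7, 0.03). Of all 9849 genes above the floor, 4737 were lower and 4565 higher, and 0.599% were at or past 2-fold lower. Argininosuccinate lyase (Asl, 12987.9 and 7345.6, -0.82), arginase (Arg1, 14825.4 and 8949.9, -0.73), ornithine transcarbamylase (Otc, 17309.4 and 11148.8, -0.63) and carbamoyl phosphate synthetase (Cps1, 29659.6 and 22581.9, -0.39) had the largest ratios, none at 2-fold. Arg1 makes the ornithine that Oat uses. The 2 genes differed in opposite directions, and a link between their ratios was not tested. In the list of ammonia-releasing deamination 8 of 9 were lower and 1 higher, and the median was -0.55. Of these genes, Hal, Gldc and Uroc1 also stand in the periportal list. Histidine ammonia-lyase (Hal, 4455.1 and 1248.3, 3.57-fold), glycine decarboxylase (Gldc, 2279.0 and 742.0, 3.07-fold) and monoamine oxidase B (Maob, 3595.7 and 1701.4, 2.11-fold) were at or past 2-fold lower. Urocanase (Uroc1, -0.84, in both probe sets), cystathionine gamma-lyase (Cth, -0.55), and the asparaginases Asrgl1 (-0.46, with another probe set at 0.27) and Aspg (-0.45) followed. Urocanase is on the list as the step after Hal and does not itself release ammonia.

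Enzymes that spend glutamine on nucleotides, amino sugars and other products showed no common direction. Of 11, 3 were higher and 8 lower, none at 2-fold, with a median of -0.03. The largest ratios were those of the transaminase Kyat1 (-0.52), the pyrimidine synthesis enzyme Cad (0.51, with another probe set at -0.29) and the CTP synthetase Ctps (-0.50), followed by Kyat3 (-0.21).

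**Figure D3:**
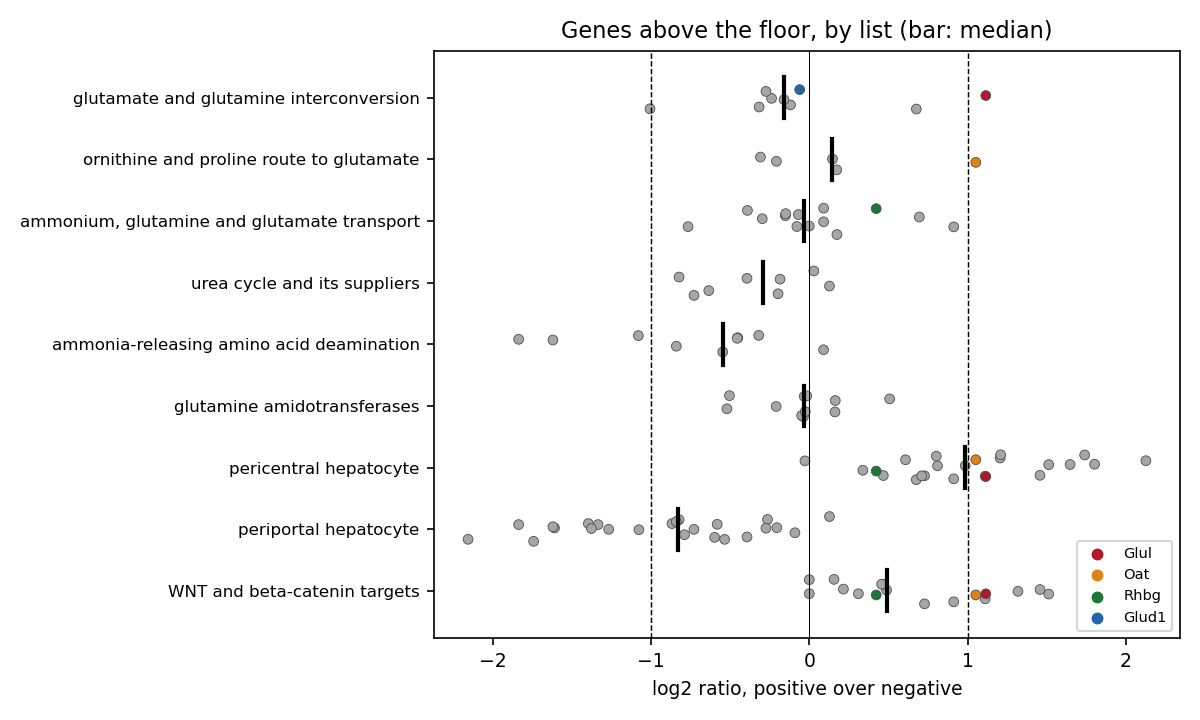
The log2 ratio of each gene above the floor, by list, with the median as a black bar, dashed lines at 2-fold and the members coloured. Glul and Oat are the only points of the 6 pathway lists past the upper line, and they lie within the spread of the pericentral list.

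Glul, Oat and Rhbg are themselves on the pericentral list, and their ratios fell within the range of its other genes. Glud1 is not on that list. Over all genes above the floor, 46.3% were higher, 1.14% at or past 2-fold higher and 0.599% at or past 2-fold lower, with a median of 0. The zonation and WNT lists were chosen with earlier results of these data known, so their counts are a description and not a test. The pericentral list had 22 of 23 genes higher, 11 at or past 2-fold, and a median of 0.98. Without Glul, Oat and Rhbg it had 19 of 20 higher and a median of 0.95. By ratio Glul took place 9, Oat place 11 and Rhbg place 21 of the 23, behind Cyp2c38 (at least 4.36-fold higher, from a negative signal below the floor), Gulo (3.49-fold), Gstm3 (3.34-fold) and Avpr1a (3.13-fold). The periportal list, to which Gls2 belongs, had 23 of 24 genes lower, 10 at or past 2-fold, and a median of -0.83, led by Aldh1b1 (4.45-fold lower), Hal, Etnppl (3.34-fold) and Gldc. Among WNT and beta-catenin targets, Glul took place 4, Oat place 6 and Rhbg place 12 of 17 above the floor. Of the 17, 15 were higher, 0 lower and 2 without a direction. Those 2, Nkd1 and Apcdd1, had lower signals in the positive array, where they lay below the floor. Their negative signals were under the positive floor (334.04), so the rule for bounds set both ratios to 0. Neither gene could therefore count as lower, and the 0 does not show that no target read lower. Lect2 (2.85-fold), Tbx3 (2.75-fold) and Rnf43 (at least 2.49-fold) stood above Glul. The median was 0.49, and 0.48 without the members, but it was 0.73 with 1 floor for both arrays and 0.91 with the 99th percentile floor. These lists share genes with one another, Hal, Gldc, Uroc1, Asl, Arg1, Cps1, Ass1 and Tat standing in both a pathway list and the periportal one. Of the WNT targets above the floor, Lect2, Tbx3, Cyp1a2, Slc1a2, Axin2, Cyp2e1, Glul, Oat and Rhbg also stand in the pericentral list. The counts of the pericentral and WNT lists are therefore not separate observations.

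Markers of other liver cells were also measured. Of 13 sinusoidal endothelial markers 8 were above the floor, with summed signals of 4093.0 and 4608.1. Of 11 Kupffer cell and macrophage markers 4 were, with sums of 2491.6 and 1967.4, and of 10 stellate cell markers 7 were, with sums of 3634.5 and 3366.0. None of the 5 cholangiocyte and 7 lymphocyte and neutrophil markers with a probe set exceeded the floor. By gene, 5 endothelial markers were higher, 1 lower and 2 without a direction. Of the macrophage markers 1 was higher and 3 lower, and of the stellate markers 3 were higher and 4 lower. The brightest endothelial marker, Clec4g, read 1255.2 and 1418.4, and Cdh5, with the largest endothelial ratio (0.84), read 283.0 and 507.0. The brightest macrophage marker, C1qb, read 1214.2 and 765.8, whereas Csf1r read 558.7 and 702.1. The part of these cells in the members' ratios was not tested. In such bulk samples a larger share of pericentral hepatocytes and more RNA per cell cannot be told apart.

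Processing moved the members little, but many of the alternatives could not move them. A change of floor leaves the ratio of a gene above both floors as it was. Oat and Rhbg have 1 probe set each, so only rescaling could change their ratios. Quantile normalization gave 1.21 for Glul, 1.12 for Oat and 0.33 for Rhbg, and loess gave 1.23, 1.14 and 0.32. The ratio of Glul lay between 1.11 and 1.26 under 8 alternatives and that of Oat between 1.05 and 1.14 under 9, at or past 2-fold in each. Rhbg lay between 0.32 and 0.42, under 2-fold in each, and Glud1 between -0.06 and 0.07, above 0 in 4 of 9. Both Glul probe sets are left out when probe sets of shared or mixed probes are dropped, so that alternative gives Glul no value.

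**Figure D4:**
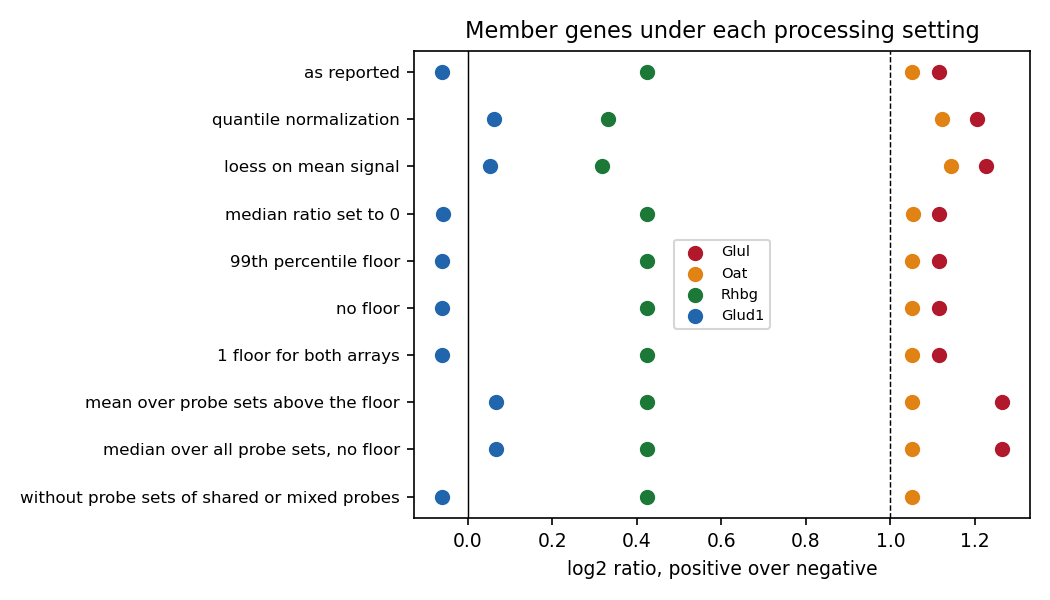
The log2 ratio of each member gene as reported and under 9 processing alternatives, with a solid line at 0 and a dashed line at 2-fold. Glul and Oat stay to the right of the 2-fold line wherever they have a value, Rhbg stays between the lines, and Glud1 lies on either side of 0.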

How the data were processed

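RNA from GFP-negative and GFP-positive hepatocytes was hybridised to 1 array each, from 6 µg of total RNA per the labels' protocols. The deposited values are linear probe set intensities, made with MAS5 per the submitters' processing notes. Version, target setting, detection calls and a genome build for the arrays: not given in the sources used here. Scaling each array to one level hides any shift of the whole transcriptome and leaves differences that depend on signal.

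Of 45101 probe sets, 34945 carried 1 symbol, 932 several, 9160 none, and 64 were controls. Symbols were matched by Entrez ID to RefSeq (GRCm38.p6) for 34741, and 0 changed. The brightest probe set stood for a gene. A gene above the floor in 1 array was given a bound, with the dim signal raised to its floor; where that bound pointed away from the bright side (546 of 1610 such genes) its log2 ratio was set to 0. A fold of 2 was used for counts. Python 3.11.15 with numpy 2.4.6 and pandas 2.3.3 was used, and the counting was tested on simulated data.

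Members, lists and alternatives were chosen with earlier results of these data known. Genes named were all members, list genes past 2-fold, up to 4 further genes per pathway list and up to 4 per zonation or WNT list by size of ratio, Slc1a2 and Slc38a3, and the nearest genes to each member; 1 further gene of that rule is not reported here. Genes shared between lists, some cell type markers and genes that qualify a count were named as well. Number of arrays limits the precision. Scaling, floor, bounds and choice of probe sets were varied.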

Additional observations from a re-analysis of the deposited data

How the results depend on the processing

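The log2 ratios of Glul, Oat, Rhbg and Glud1 moved by less than the technical SD of 1 ratio (0.29) under each alternative that gave a value. Alternatives that change only the floor could not move them. The brightest Glud1 probe set was below 0 as deposited and above 0 after quantile normalization and loess. Genes at or past 2-fold numbered 112 higher and 59 lower, that is 65.5% higher, against 52.3% after loess (80 and 73). Without a floor they were 1629 and 1655, and 1514 and 1606 with the median over all probe sets and no floor, where dim signals enter. The WNT target median was 0.91 with the 99th percentile floor, which leaves fewer genes. The urea cycle median stayed between -0.30 and -0.24, that of deamination between -0.69 and -0.45, the pericentral median between 0.95 and 1.05 and the periportal one between -0.83 and -0.72. Medians of the transport and amidotransferase lists lay near 0, above it in 3 (transport) and 1 (amidotransferase) of 12 alternatives. The interconversion median lay between -0.24 and 0.07, above 0 in 1 of 12. That of the ornithine list lay between -0.03 and 0.18, below 0 only without the members. Rhbg is limited by its signal, near background. No paired analysis was possible because each group has 1 array, and no replicate could be left out. Dropping the members from the lists was chosen after seeing the data.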
